A study of Mus musculus with 3 samples.

Results

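Integrins and laminins, the receptors and ligands that attach cells to the basement membrane, were read in single-cell RNA data of the embryonic mouse hindstomach, the glandular part of the stomach. Members were chosen by their symbols as integrin alpha, integrin beta and laminin alpha, beta and gamma chains, and 35 genes (25 integrin and 10 laminin subunits) of 46675 symbols are described. All 35 were listed in each library. The 3 libraries were made at embryonic day 18.5 and each represents 1 genotype. The control carried Shh-Cre alone. The YAP5SA library carried Shh-Cre with YAP5SA, an activated YAP whose LATS target serines are mutated. The Yap knockout library carried Shh-Cre with Yap loxP/loxP. Cre was thus present in all 3 genotypes, and Shh-Cre recombines in the stomach epithelium, so the surrounding mesenchymal, muscle, nerve, vessel and blood cells are not its direct target. The sources used here do not give the number of embryos per library. With 1 library per genotype no difference between genotypes could be tested. Intervals printed here are exact 95% Poisson intervals, which cover the counting of unique molecular identifiers (UMIs) and not the spread between animals.

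Integrins are heterodimers of an alpha and a beta chain that span the plasma membrane and tie the matrix to actin or, through the beta chain Itgb4, to keratin filaments. Laminins are trimers of an alpha, a beta and a gamma chain and are the main adhesive proteins of basement membranes. In glandular epithelia the laminin-binding receptors pair Itga3 or Itga6 with Itgb1, or Itga6 with Itgb4 in hemidesmosomes, and genes of this adhesion system are among the known targets of YAP and its TEAD partners.

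After filtering, 6959 control, 8518 YAP5SA and 4890 Yap knockout cells were kept, with median depths of 4900, 5225 and 4980 UMIs per cell. The deposited matrices held 48910624, 65843658 and 40857358 UMIs. Cells were placed in classes by scores over fixed marker genes, which placed 72.7%, 67.3% and 68.9% of the kept cells. Between 14.8% and 18.6% of the cells of a library lay within 0.1 of a score limit, so a class is a range of scores. Epithelial-like cells numbered 475, 1616 and 620. Most control and Yap knockout epithelial-like cells fell in cluster 12 (382 of 475 and 431 of 620), whereas most YAP5SA ones fell in clusters 17 and 28 (996 and 396 of 1616). Fibroblast-like cells were mostly in cluster 0 in the control and cluster 4 in YAP5SA, and smooth muscle-like cells in cluster 3 in the control and cluster 11 in YAP5SA. Pericyte-like cells were divided, with 40.5%, 49.8% and 47.3% in cluster 25 in the control, YAP5SA and Yap knockout. Of the others, 51.4% of the control cells lay in cluster 0 and 41.5% of the YAP5SA cells in cluster 4. In the Yap knockout 25.3% lay in cluster 5 and 9.89% in cluster 0. Clusters 0, 4 and 5 were named fibroblast from their markers. None of the 9 epithelial markers was among the 10 leading genes of the epithelial-like class, which were led by secretory genes such as Tff3 and Tff2. The interstitial cell of Cajal-like class likewise had 0 of its own markers among its 10 leading genes. Cell names are running numbers, of which control and YAP5SA shared 2409, control and Yap knockout 1388, and YAP5SA and Yap knockout 1528. Yap1 stood at 49.1, 55.4 and 21.8 UMIs per 1000000 (CPM) in epithelial-like cells of the control, YAP5SA and Yap knockout, and at 54.4, 50.2 and 48.7 CPM in the other classes. A 3′ tag of Yap1 does not measure the deletion, and transcripts of a human transgene would be missed by this mouse symbol. The YAP target Ccn2 stood at 10.4, 196 and 19.0 CPM in the epithelial-like cells, and the pit cell peptide Tff1 at 7111, 62.6 and 8331 CPM.

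Where each subunit was found was compared over the 9 classes with at least 50 cells in every library. Mesothelial-like, MHC class II monocyte and dendritic-like, neutrophil-like and other smaller classes were left out. Leading, highest and lowest classes are therefore meant among these 9 only. The class with the highest CPM was the same in all 3 libraries for 18 of the 35 genes. The highest class was taken by value alone, without regard to intervals, and the share over all genes is not given. CPM here are a gene's UMIs per 1000000 UMIs summed over the cells of a class, and levels are compared between classes or libraries for the same gene only, since 3′ tags of different genes are caught unequally. Of the 9 classes, epithelial-like cells were highest in every library for Itgb6, which pairs with Itgav to activate latent TGF-beta, and for Lamb3, the beta chain of laminin-332. Lamb3 stood at 44.5 CPM in epithelial-like cells of the control, against at most 4.96 CPM in the others of the 9 classes. Itgb6 stood at 11.6 against at most 6.24 CPM. Outside the 9, Lamb3 stood at 10.3 CPM in mesothelial-like cells of the control and 58.3 CPM in neutrophil-like cells of YAP5SA. In the 44 neutrophil-like cells of the Yap knockout it stood at 78.0 CPM (35.7 to 148) on 9 UMIs, above the 27.1 CPM of its epithelial-like cells. Lama3, the alpha chain of laminin-332, was not highest in epithelial-like cells. It was highest in endothelial-like cells of all 3 libraries, at 46.5, 38.9 and 41.8 CPM in the control, YAP5SA and Yap knockout, against 7.32, 12.6 and 3.13 CPM in epithelial-like cells.

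**Figure D1:**
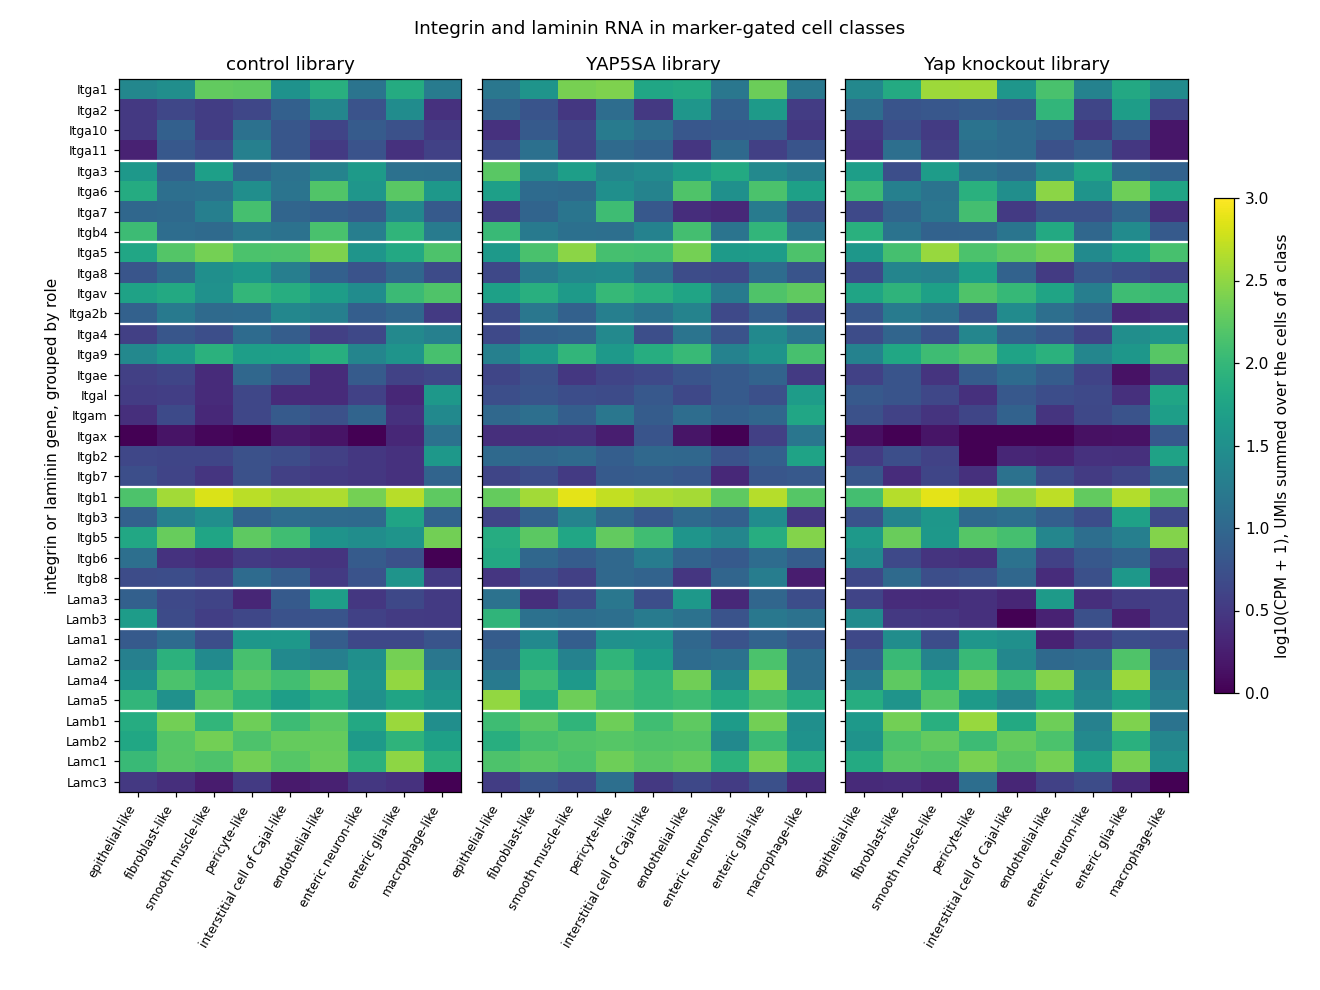
Heat maps of the 35 integrin and laminin genes (rows, grouped by role, white lines between groups) in 9 marker-gated classes (columns) of each library, coloured by log10(CPM + 1). Itgb6 and Lamb3 are brightest in the epithelial-like column of every library, Itgb2, Itgam and Itgal in the macrophage-like column, and Itga7 in the pericyte-like column.

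The other genes with the same leading class in all 3 libraries followed muscle, vessel, glial and myeloid lines. Itgb1, the beta chain shared by most matrix receptors, was highest in smooth muscle-like cells, at 681, 749 and 753 CPM. The epithelial-like class was the lowest of the 9 for Itgb1 in the control and Yap knockout, at 145 and 125 CPM, and stood at 193 CPM in YAP5SA, where macrophage-like cells were lowest at 160 CPM. Pericyte-like cells led for Itga7, the laminin receptor chain of muscle, at 129, 117 and 125 CPM, and for Itga8, Itga10 and Lamc3. In the control Lamc3 led there on 2 UMIs (2.24 CPM, 0.271 to 8.09), against 2.14 CPM in epithelial-like cells. In the Yap knockout Itga10 led on 8 UMIs (12.9 CPM, 5.56 to 25.4), against 10.1 CPM in interstitial cell of Cajal-like cells (4.62 to 19.2). These 2 leads lie within counting error. Enteric glia-like cells led for Lama4 at 329, 299 and 349 CPM and for Lama2 at 235, 141 and 148 CPM, both laminin alpha chains of non-epithelial basement membranes. They also led for Itgb3 and for Itgb8, another beta chain that binds latent TGF-beta. Macrophage-like cells led for the leukocyte chains Itgb2 (39.0, 54.0 and 52.8 CPM), Itgam (25.7, 59.4 and 46.7 CPM), Itgal and Itgax, and for Itga9 and the vitronectin receptor chain Itgb5. Blood classes outside the 9 had more of the leukocyte chains. The 250 neutrophil-like cells of YAP5SA had Itgam at 212, Itgb2 at 156 and Itgal at 89.0 CPM. MHC class II monocyte and dendritic-like cells (49, 235 and 121) had Itgax at 31.6, 47.0 and 40.2 CPM and Itgb2 at 83.5, 66.3 and 77.8 CPM. The remaining 17 genes had different leading classes in at least 1 library. Among them, Itga6 was highest in enteric glia-like cells of the control at 171 CPM and in endothelial-like cells of YAP5SA and Yap knockout at 149 and 297 CPM. Itga3 led in smooth muscle-like cells of the control (47.8 CPM), in epithelial-like cells of YAP5SA (168 CPM) and in enteric neuron-like cells of the Yap knockout (56.3 CPM). Mesothelial-like cells, outside the 9 classes, had more Itga3 in each library, at 126, 207 and 172 CPM in 141, 39 and 22 cells. Itgb4 led in endothelial-like cells of the control and YAP5SA (137 and 125 CPM) and in epithelial-like cells of the Yap knockout (80.2 CPM).

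Of the other genes without a fixed leading class, the collagen receptor chain Itga1 was highest in smooth muscle-like cells of the control (189 CPM) and in pericyte-like cells of YAP5SA and the Yap knockout (262 and 368 CPM). The fibronectin receptor chain Itga5 led in endothelial-like cells of the control (262 CPM) and in smooth muscle-like cells of the other libraries (299 and 345 CPM). Itgav, which joins several beta chains, led in macrophage-like cells of the control and YAP5SA (148 and 184 CPM) and in pericyte-like cells of the Yap knockout (146 CPM). The laminin chains Lamb1 and Lamc1 led in enteric glia-like cells of the control (357 and 306 CPM) and of YAP5SA (231 and 239 CPM), and both led in pericyte-like cells of the Yap knockout (343 and 248 CPM). Lamb2 led in smooth muscle-like cells of the control (226 CPM), pericyte-like cells of YAP5SA (162 CPM) and interstitial cell of Cajal-like cells of the Yap knockout (193 CPM). Lama5 led in smooth muscle-like cells in the control (167 CPM) and Yap knockout (158 CPM) and in epithelial-like cells of YAP5SA (329 CPM). Mesothelial-like cells of the control, outside the 9 classes, had Lama5 at 178 CPM (157 to 201). Lama1 reached 38.5 CPM at most. Itga2, Itga2b, Itga4, Itga11, Itgae and Itgb7 also had no common leading class, and their highest values in any of the 9 classes were 92.9, 26.9, 34.4, 19.0, 10.1 and 12.3 CPM. In MHC class II monocyte and dendritic-like cells, outside the 9, Itgb7 stood at 246, 70.6 and 203 CPM and Itga4 at 102, 51.3 and 123 CPM.

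In epithelial-like cells the YAP5SA library had more RNA of a laminin-binding alpha chain, of the alpha chain of the main epithelial laminins and of the TGF-beta-activating integrin. Of the 35 genes, 18 reached 10 CPM in the control or YAP5SA and 17 did not. Of the 18, 3 were over 2-fold higher (Itga3, Itgb6 and Lama5) and 1 over 2-fold lower (Lama4), with 1 CPM added to each value. These are 16.7% and 5.56% of the measured members, where 11.3% and 8.41% of all 10091 measured genes were past 2-fold higher and lower. The median log2 ratio was 0.24 over the 18 members and 0.12 over all measured genes. Scaling by the median of gene ratios in place of total UMIs would lower each log2 ratio by 0.12.

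For these 3 genes the 250 bases before the start, from the RefSeq promoter table (build GRCm38.p6), are shown, so that short motifs can be compared among genes that were higher in the same library. Each is written 5′ to 3′ on the gene's minus strand, and capitals mark the GC box GGGCGG on either strand. The Itga3 window is chr11:95076715-95076964, that of Itgb6 chr2:60722604-60722853 and that of Lama5 chr2:180225860-180226109. Itga3 and Itgb6 have 2 starts each in the table, of which the most upstream was used.
Itga3: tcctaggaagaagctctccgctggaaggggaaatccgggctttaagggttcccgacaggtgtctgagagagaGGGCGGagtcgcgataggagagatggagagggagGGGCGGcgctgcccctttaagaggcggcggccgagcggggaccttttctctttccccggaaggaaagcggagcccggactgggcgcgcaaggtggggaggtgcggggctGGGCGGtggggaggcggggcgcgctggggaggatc
Itgb6: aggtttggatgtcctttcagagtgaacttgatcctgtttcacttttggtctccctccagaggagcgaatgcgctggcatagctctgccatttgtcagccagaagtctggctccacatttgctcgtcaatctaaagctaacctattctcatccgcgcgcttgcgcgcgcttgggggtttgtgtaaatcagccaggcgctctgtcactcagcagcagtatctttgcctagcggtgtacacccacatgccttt
Lama5: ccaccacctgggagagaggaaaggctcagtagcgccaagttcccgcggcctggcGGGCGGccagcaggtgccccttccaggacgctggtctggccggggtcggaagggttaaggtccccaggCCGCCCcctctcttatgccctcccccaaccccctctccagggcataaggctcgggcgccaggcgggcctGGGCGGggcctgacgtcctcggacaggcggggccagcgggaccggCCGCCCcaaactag
The GC box occurred 3 times in the Itga3 window (178, 144 and 35 bases before the start) and 4 times in that of Lama5 (196, 128, 59 and 14 bases before it), but not in that of Itgb6. It was in 33% of 27025 promoter windows of this length and in 8 of the 23 members with an entry. The TEAD core GGAATG, searched on both strands, was in 12.6% of all windows and in 2 of the 23 members, Itga10 and Itgb1. The AP-1 core TGANTCA was in 6.85% of all windows and in Itgax alone among the members. Neither core was in the Itga3, Itgb6 or Lama5 window, which says only that these letters are not in these 250 bases. The windows were 67.6%, 52.0% and 72.4% G and C for Itga3, Itgb6 and Lama5.

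Itga3, the alpha chain that pairs with Itgb1 to bind laminin-332 and Lama5-containing laminins, had 38.4 CPM in control epithelial-like cells (32.0 to 45.8), 168 CPM in those of YAP5SA (162 to 175) and 47.0 CPM in those with Yap deleted (41.8 to 52.6). YAP5SA stood apart from both other libraries, at 4.38-fold the control (95% interval 3.67 to 5.28). With every cell thinned to 1000 UMIs, an Itga3 UMI was found in 15.7% of the YAP5SA, 4.84% of the control and 4.03% of the Yap knockout cells of this class (58.3%, 19.8% and 26.8% without thinning), against 1.68%, 0.993% and 1.79% of macrophage-like cells. No cell fell under this depth, and the median depths of the control, YAP5SA and Yap knockout were 4154, 7032 and 5698 UMIs in epithelial-like and 4916, 5588 and 7408 UMIs in macrophage-like cells.

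Lama5, the alpha chain of the laminins found under most epithelia, had 92.7 CPM in the control (82.6 to 104), 329 CPM with YAP5SA (321 to 338) and 72.4 CPM in the Yap knockout (65.9 to 79.3). The YAP5SA value was 3.55-fold the control (3.16 to 4.0). At 1000 UMIs per cell, 28.7% of YAP5SA epithelial-like cells held a Lama5 UMI against 13.1% in the control and 10.3% in the Yap knockout (79.6%, 39.2% and 42.1% without thinning), and 6.48%, 4.64% and 1.79% of macrophage-like cells of the same libraries did. Its partner chains differed less in the values as counted: Lamb1 stood at 71.7, 115 and 40.3 CPM, Lamb2 at 60.7, 76.0 and 33.4 CPM, and Lamc1 at 108, 143 and 67.1 CPM in the control, YAP5SA and Yap knockout. All 3 partner chains thus had the order YAP5SA, control, Yap knockout, and none was past 2-fold. These statements are for the values as counted. The non-epithelial profile of the same library was also subtracted, as described further on. The YAP5SA log2 ratios of the 3 partner chains then went from 0.68, 0.32 and 0.41 to 2.43, 2.61 and 1.03, against 2.14 for Lama5. That puts all 3 past 2-fold. The share subtracted was 33.6% in the control and 24.1% in YAP5SA, values under 0 were set to 0, and what was left was not rescaled. Such ratios can rest on little control RNA, and the CPM left and their intervals are not given here.

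Lamb3 stood at 44.5, 90.0 and 27.1 CPM in the control, YAP5SA and Yap knockout, 2.02-fold the control in YAP5SA (1.70 to 2.41), which falls just short of 2-fold once 1 CPM is added to both values. Lama3 stood at 7.32, 12.6 and 3.13 CPM, 1.72-fold in YAP5SA (1.12 to 2.74). Both chains were thus higher in the YAP5SA epithelial-like cells than in either other library.

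Itgb6 stood at 11.6 CPM in the control (8.20 to 15.9), 63.2 CPM with YAP5SA (59.5 to 67.1) and 26.0 CPM with Yap deleted (22.2 to 30.3). It was 5.45-fold the control in YAP5SA (3.95 to 7.75) and 2.24-fold in the Yap knockout (1.57 to 3.28), and the control was the lowest of the 3 libraries. At 1000 UMIs per cell, 7.05% of YAP5SA, 2.90% of Yap knockout and 1.05% of control epithelial-like cells held an Itgb6 UMI (36.6%, 16.5% and 6.53% without thinning). In macrophage-like cells these shares were 0.907%, 0.446% and 0 of 302 cells, and the last allows up to 1.21% (exact Clopper-Pearson). Its alpha partner Itgav stood at 51.9, 49.1 and 55.9 CPM, with ratio intervals to the control that include 1 in both genotypes.

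**Figure D2:**
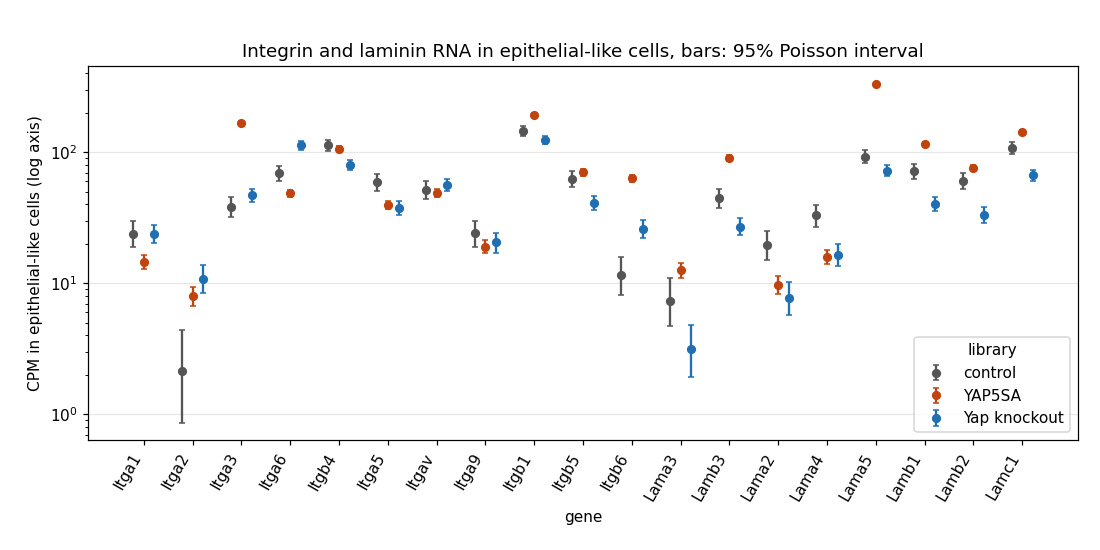
CPM (log axis) of the 19 integrin and laminin genes that reach 10 CPM in epithelial-like cells of any library, for the control (grey), YAP5SA (orange) and Yap knockout (blue); points are summed UMIs of 1 library and bars are 95% Poisson intervals. Itga3, Itgb6 and Lama5 of YAP5SA lie well above both other libraries, and Itga6 is highest in the Yap knockout.

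The hemidesmosome pair did not share this pattern. Itga6 stood at 68.9 CPM in the control (60.2 to 78.5), 48.5 CPM with YAP5SA (45.3 to 52.0) and 113 CPM with Yap deleted (105 to 121), so the order was the reverse of that of Lama5. Its YAP5SA value was 1.42-fold lower than the control (1.22 to 1.65) and its Yap knockout value 1.64-fold higher (1.41 to 1.91). Itgb4, which pairs with Itga6 alone, stood at 113, 106 and 80.2 CPM and was 1.41-fold lower in the Yap knockout (1.23 to 1.61). The chains of the pair thus differed from the control in opposite directions in the Yap knockout library.

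Among the remaining measured integrins, Itgb1 stood at 145, 193 and 125 CPM and was 1.33-fold higher in YAP5SA (1.21 to 1.47). The fibronectin receptor chain Itga5 stood at 58.9, 39.6 and 37.8 CPM, lower in both genotypes than in the control. Itgb5 stood at 62.5, 70.3 and 41.0 CPM, the collagen receptor chain Itga1 at 23.8, 14.6 and 23.8 CPM, and Itga9 at 24.1, 19.1 and 20.5 CPM. None of these 5 was past 2-fold. The mesenchymal laminin chains Lama4 (32.9, 15.9 and 16.5 CPM) and Lama2 (19.5, 9.74 and 7.68 CPM) were the lowest ratios in YAP5SA, 2.07-fold lower for Lama4 (1.64 to 2.59) and 2.0-fold lower for Lama2 (1.48 to 2.69). RNA of fibroblasts in the epithelial-like cells was also highest in the control. It had the order of Lama2, whereas Lama4 was about equal in YAP5SA and the Yap knockout. All 8 fibroblast markers had UMIs there in each library, and their sum was 7742 CPM in the control, 3198 CPM with YAP5SA and 1092 CPM with Yap deleted, with Col1a1 at 4778, 2043 and 541 CPM. With the non-epithelial profile of the same library subtracted in proportion to the collagen genes (33.6%, 24.1% and 30.6% of the epithelial sum), Lama4 had no UMIs left in any library, and the log2 ratio of Lama2 in YAP5SA was 0.58 in place of -0.93. The same subtraction took the log2 ratio of Itgb1 in YAP5SA from 0.41 to 4.32. A ratio of this kind can rest on little control RNA left, and it has no interval. After the subtraction Itga3, Itgb6 and Lama5 had log2 ratios of 2.37, 2.38 and 2.14 in YAP5SA, against 2.10, 2.35 and 1.82 without it. A larger share was taken from the control than from YAP5SA, and what was left was not rescaled. The step can therefore raise YAP5SA ratios by itself. It cannot show the part of free RNA in these 3 values, which was not tested.

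The 17 members below 10 CPM in both control and YAP5SA epithelial-like cells were Itga2, Itga4, Itga7, Itga8, Itga10, Itga11, Itga2b, Itgae, Itgal, Itgam, Itgax, Itgb2, Itgb3, Itgb7, Itgb8, Lama1 and Lamc3. The largest values among them in YAP5SA were 9.50 CPM for Itgb2 and 9.27 CPM for Itgam, leukocyte chains that stood at 3.36 and 1.53 CPM in the control. Macrophage and neutrophil marker sums in the epithelial-like cells were also higher in YAP5SA, at 392 and 217 CPM against 179 and 52.8 CPM in the control. All 8 macrophage and all 7 neutrophil markers had UMIs there in every library, and the part of this RNA in the 2 values was not tested.

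The Yap knockout was set against the same control library, so its ratios share that library with those of YAP5SA. Most measured chains had slightly less RNA in its epithelial-like cells. Of 18 measured members, 12 had a ratio under 1 and 6 over 1. The median log2 ratio was -0.42, against 0.02 over all 9800 measured genes. Past 2-fold were 2 higher (Itga2 and Itgb6) and 1 lower (Lama2), or 11.1% and 5.56% of the measured members, where 3.05% and 4% of all measured genes were past 2-fold higher and lower. The 2 members that were higher bind different ligands. Itga2, a collagen receptor chain, stood at 2.14 CPM in the control (0.858 to 4.40), 7.97 CPM with YAP5SA (6.68 to 9.43) and 10.8 CPM with Yap deleted (8.41 to 13.7), 5.06-fold the control in the Yap knockout (2.33 to 13.1) on 7 control UMIs. Itga2 was measured here only because the Yap knockout reached 10 CPM, so it adds no support to the share of 11.1%. As with Itgb6, the control was the lowest of the 3. The laminin beta and gamma chains Lamb1, Lamb2 and Lamc1 were 1.78-fold, 1.82-fold and 1.61-fold lower in the Yap knockout, Lamb3 1.64-fold lower (1.31 to 2.06), Lama5 1.28-fold lower (1.10 to 1.48) and Lama2 2.54-fold lower (1.73 to 3.77). With the non-epithelial profile subtracted Lama2 had no UMIs left in the control or the Yap knockout, and the count past 2-fold lower was 0. The same subtraction moved the log2 ratio of Lamb2 from -0.84 to -3.02, of Itga9 from -0.22 to -2.81, of Itga5 from -0.63 to -2.58 and of Itgb1 from -0.22 to -2.44 in the Yap knockout. These ratios too can rest on little RNA left after the subtraction, and they have no interval.

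Epithelial-like cells were divided by further markers, because the libraries differed in their mix. Pit-like cells numbered 97, 1 and 107 in the control, YAP5SA and Yap knockout, neck and chief-like cells 122, 12 and 133, and squamous-like cells 12, 196 and 5. The cells that matched none of the subclasses numbered 203, 1389 and 236, enough to set side by side in all 3 libraries. They are what the markers left over and not a matched cell type. Clusters 17 and 28 held 1118 and 418 kept cells of YAP5SA, 1 each of the control and 0 of the Yap knockout. Comparing the remainder therefore does not remove the difference in cells between the libraries. In these, Itga3 stood at 39.8, 168 and 33.7 CPM, Lama5 at 82.8, 333 and 87.9, and Itgb6 at 8.76, 66.4 and 28.7 CPM. YAP5SA was the highest library for all 3 genes. Without squamous-like cells the members over 2-fold higher in YAP5SA were Itga3, Itgb6 and Lama5, the 3 found with them, beside a background of 12% higher and 8.39% lower, and those lower were Lama2 and Lama4. For the Yap knockout they were Itga2 and Itgb6, with Lama2 lower, beside 3.03% and 3.87% of all genes.

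Within YAP5SA the squamous-like cells had more RNA than the undivided remainder of the hemidesmosome chain Itgb4 and the laminin chains Lama3 and Lamb3. Itgb4 stood at 249 CPM (229 to 270) in squamous-like and 83.8 CPM (79.1 to 88.7) in the remaining cells, Lama3 at 27.4 (21.1 to 35.1) and 10.2 (8.62 to 12), and Lamb3 at 130 (116 to 146) and 84.2 (79.5 to 89.1) CPM. Itga3, Lama5 and Itga6 had overlapping intervals in the 2 sets, at 176 and 168, 324 and 333, and 44.8 and 49.2 CPM. Lower in squamous-like cells were Itgb6 at 48.3 against 66.4 CPM, Itgav at 34.8 against 50.7, Lamb1 at 82.7 against 121 and Lamc1 at 115 against 148 CPM. Their intervals do not overlap. The share of all genes with separate intervals in these 2 sets is not given, so such differences cannot be called particular to these subunits. These cells come from 1 library and are not replicates. By cluster, Itga3 stood at 124 CPM in cluster 17, 273 in cluster 28 and 196 in cluster 22 of YAP5SA, and Lama5 at 335, 326 and 326 CPM, so Itga3 varied among the clusters and Lama5 hardly did.

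Control and Yap knockout could be compared within pit-like and neck and chief-like cells. Itga6 stood at 47.8 CPM in the control and 93.9 CPM in the Yap knockout in pit-like cells, and at 78.7 and 123 CPM in neck and chief-like cells, with no overlap of intervals in either. Among the 57 parietal-like cells of the Yap knockout, the acid-secreting lineage, it reached 216 CPM (183 to 254), the highest of its subclasses with at least 50 cells. Itgb4 stood at 117 and 93.9 CPM in pit-like cells and at 130 and 59.1 CPM in neck and chief-like cells, where the intervals did not overlap. Itgb6 in neck and chief-like cells stood at 18.9 CPM in the control (11.4 to 29.6) and 44.5 CPM (34.5 to 56.5) in the Yap knockout. Itga3 reached 142 CPM (114 to 175) in the 52 intestinal-like cells of the Yap knockout, against 58.3 CPM in its pit-like and 27.2 CPM in its neck and chief-like cells.

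**Figure D3:**
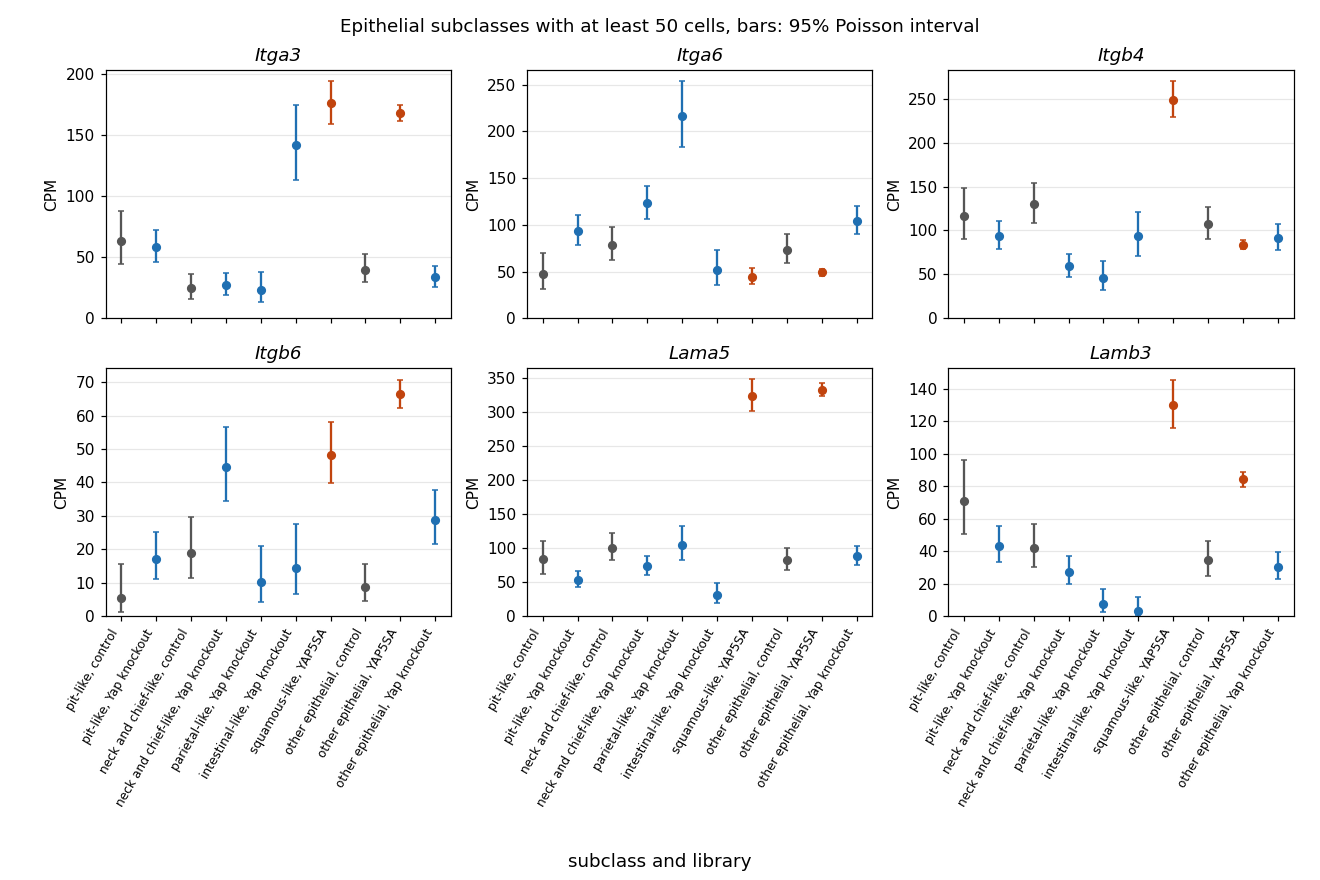
CPM of 6 genes (linear axes from 0) in the epithelial subclasses with at least 50 cells in a library, in grey for the control, orange for YAP5SA and blue for the Yap knockout; bars are 95% Poisson intervals. Itgb4 and Lamb3 are highest in squamous-like YAP5SA cells, Itga6 in parietal-like Yap knockout cells, and Itga3 is near 170 CPM in both YAP5SA sets.

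Outside the epithelium, 29 of 172 measured pairs of gene and class were over 2-fold higher in YAP5SA than in the control and 4 lower, over 8 classes that Shh-Cre is not known to target. In fibroblast-like cells 5 of 22 measured members were higher (Itga3, Itgam, Lama1, Lama5 and Lamb3) and 1 lower (Itgb3), beside 3.07% and 1.34% of all genes. In smooth muscle-like cells 1 of 20 was higher and 1 lower, beside 1.94% and 1.51%, and in pericyte-like cells 7 of 28 were higher and 0 lower, beside 5.18% and 4.72%. Interstitial cell of Cajal-like cells had 4 of 22 higher and 0 lower, beside 3.6% and 2.4%, and endothelial-like cells 4 of 21 and 0, beside 3.5% and 2.59%. Enteric neuron-like cells had 1 of 15 higher and 1 lower, beside 3.73% and 4.91%, and enteric glia-like cells 5 of 23 and 0, beside 4.38% and 3.46%. In macrophage-like cells 2 of 21 were higher and 1 lower, beside 3.14% and 3.49% of all genes. Of the 7 in pericyte-like cells only Itga4 reached 10 CPM in the control, and the ratio intervals of Itga2 and Lamb3 include 1. The others were measured only because YAP5SA reached 10 CPM. So were, among others, Itga3, Itgam and Lamb3 in fibroblast-like and Itga4, Itgam and Lamb3 in endothelial-like cells. Counts that hold such genes are descriptive only. Erythroid-like cells, with 85 and 237 cells in these 2 libraries, had 7 of 21 higher and 0 lower, beside 17.9% and 3.3%.

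A few genes made up most of these pairs. Lamb3 was over 2-fold higher in 7 of the 8 classes, Itga3, Itgam and Lama5 in 4 each and Itgb6 in 2. Lamb3 ranged from 4.81 to 16.6 CPM over the 8 classes of YAP5SA and from 2.23 to 4.96 CPM in the control, so it was measured in these 7 classes only because YAP5SA reached 10 CPM. In macrophage-like cells, not a known source of laminin-332, Lamb3 stood at 2.23, 12.4 and 2.56 CPM in the control, YAP5SA and Yap knockout. RNA of epithelial markers was also highest in YAP5SA in these classes. All 9 markers had UMIs in every one of the 8 classes, and their sum ranged from 195 to 365 CPM in the control, from 810 to 1083 in YAP5SA and from 263 to 595 CPM in the Yap knockout. Its part in the laminin and integrin values was not tested.

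At higher levels, Lama5 stood at 31.8 and 73.1 CPM in fibroblast-like cells of the control and YAP5SA, 46.5 and 97.3 CPM in interstitial cell of Cajal-like cells, 31.9 and 68.5 CPM in enteric neuron-like cells and 55.4 and 127 CPM in enteric glia-like cells. These are ratios of 2.30, 2.09, 2.15 and 2.29. Itga3 stood at 7.54 and 22.6 CPM in fibroblast-like cells, 8.96 and 22.3 in pericyte-like cells, 12.6 and 26.7 in interstitial cell of Cajal-like cells and 21.2 and 43.9 CPM in endothelial-like cells. In smooth muscle-like cells, which led for Itga3 among the 9 classes compared in the control, it stood at 47.8 CPM there with a YAP5SA log2 ratio of -0.03. Itga4, which binds fibronectin and VCAM1, stood at 10.1 and 24.6 CPM in pericyte-like cells.

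**Figure D4:**
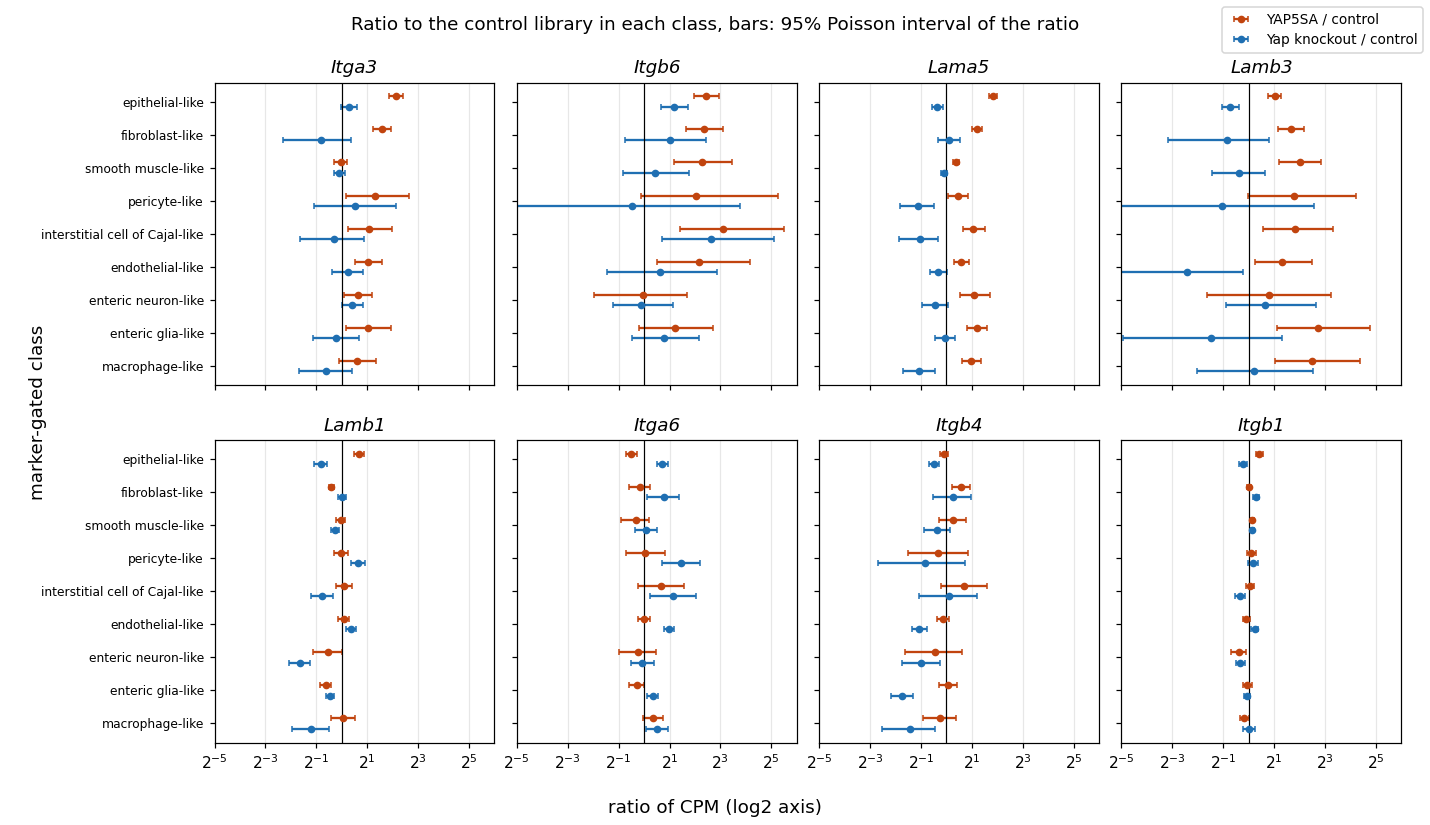
Ratio of CPM to the control (log2 axis) for 8 genes in 9 classes, YAP5SA in orange and Yap knockout in blue, with exact 95% Poisson intervals of the ratio; a class with no UMIs in a library is not drawn and long intervals run off the axis. Lamb3 lies right of 1 in every class of YAP5SA, Itga6 of the Yap knockout lies right of 1 in 8 of 9 classes, and Itgb1 stays near 1.

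Other members differed in single classes. Itga1 in enteric glia-like cells stood at 69.1, 208 and 64.2 CPM, 3.02-fold the control in YAP5SA (2.41 to 3.79). Itgb5 in the same cells stood at 34.3, 72.7 and 18.8 CPM, 2.12-fold (1.5 to 3.01). Lama1 in fibroblast-like cells, a laminin alpha chain of early embryonic basement membranes, stood at 10.1, 25.3 and 28.7 CPM, 2.50-fold higher in YAP5SA (2.0 to 3.15) and 2.83-fold in the Yap knockout (1.94 to 4.05). In macrophage-like cells Itgam, the alpha chain of the complement receptor of myeloid cells, stood at 25.7, 59.4 and 46.7 CPM, 2.32-fold in YAP5SA (1.70 to 3.23). Neutrophil markers in these cells summed to 68.0, 280 and 78.5 CPM, and their part in this value was not tested. Lower in YAP5SA were Lama4 in smooth muscle-like cells (87.6 to 41.4 CPM) and in macrophage-like cells (30.1 to 11.4 CPM), Itgb3 in fibroblast-like cells (19.6 to 7.62 CPM) and Lama2 in enteric neuron-like cells (29.8 to 12 CPM). Fibroblast marker sums were lower alongside in these classes, from 9648 to 6032 CPM in smooth muscle-like, 6942 to 3273 CPM in macrophage-like and 7059 to 3110 CPM in enteric neuron-like cells, and their part in the laminin values was not tested.

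In the same 8 classes of the Yap knockout, 13 of 159 measured pairs were over 2-fold higher and 15 lower. Fibroblast-like cells had 4 of 20 measured members higher and 0 lower, beside 5.71% and 1.91% of all genes, and smooth muscle-like cells 0 of 18 in either direction, beside 2.2% and 2.2%. Pericyte-like cells had 5 of 24 higher and 1 lower, beside 10% and 7.17%, and interstitial cell of Cajal-like cells 3 of 24 and 2, beside 8.43% and 5.04%. Endothelial-like cells had 1 of 18 higher and 1 lower, beside 6.27% and 5.01%, and enteric neuron-like cells 0 of 15 and 3, beside 2.72% and 4.3%. Enteric glia-like cells had 0 of 20 higher and 2 lower, beside 4.41% and 4.72%, and macrophage-like cells 0 of 20 and 6, beside 2.23% and 8.28%. Some of the higher members were measured only because the Yap knockout reached 10 CPM. These were Itga8 and Itgb8 in fibroblast-like, Lamc3 in pericyte-like, and Itgb6 and Itgb7 in interstitial cell of Cajal-like cells. With 1 library per genotype none of these counts has a test.

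Itga6 had a ratio over 1 in 7 of the 8 classes. In endothelial-like cells, where Itga6 forms the laminin receptor of vessels, it stood at 151, 149 and 297 CPM, 1.97-fold in the Yap knockout (1.72 to 2.26), just inside 2-fold. In pericyte-like cells it stood at 29.1, 30.0 and 78.8 CPM, 2.71-fold (1.65 to 4.54), and in interstitial cell of Cajal-like cells at 13.3, 20.9 and 29.2 CPM, 2.20-fold (1.18 to 4.15). Pericyte-like cells were divided among clusters as given above, and the part of this division in any pericyte-like value was not tested. Itgb4 went the other way in endothelial-like cells, at 137, 125 and 65.3 CPM, 2.09-fold lower in the Yap knockout (1.71 to 2.57), and in enteric glia-like cells, at 90.2, 94.0 and 27.0 CPM, 3.34-fold lower (2.49 to 4.53). Itga6 in enteric glia-like cells stood at 171, 140 and 216 CPM. In the Yap knockout the chains of this pair therefore differed from the control in opposite directions in epithelial-like, endothelial-like and enteric glia-like cells. Smooth muscle-like, pericyte-like and macrophage-like cells also had ratios on opposite sides of 1. Both ratios were over 1 in fibroblast-like (1.70 and 1.20) and interstitial cell of Cajal-like cells (2.20 and 1.07). Both were under 1 in enteric neuron-like cells (0.952 and 0.496).

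Itga2 in endothelial-like cells stood at 22.6, 36.4 and 92.9 CPM, 4.12-fold the control in the Yap knockout (3.01 to 5.73). The endothelial-like class was divided unequally among clusters, with cluster 24 holding 52.3%, 55.7% and 84.3% of it in the control, YAP5SA and Yap knockout and cluster 19 holding 35.8%, 24.6% and 13.5%. Itga1 was 2.04-fold higher in pericyte-like cells (180 and 368 CPM) and 2.25-fold in fibroblast-like cells (29.6 and 66.6 CPM) of the Yap knockout, whose fibroblast-like class held 186 cells against 2243 in the control, in clusters 0 and 5 (51.6% and 41.9%). Itga8 stood at 9.68 and 22.2 CPM in fibroblast-like cells. In pericyte-like cells Itga9 stood at 47.0 and 151 CPM, 3.22-fold (2.21 to 4.74), Itga4 at 10.1 and 22.5 CPM, with an interval that includes 1, and Lama5 at 91.8 and 41.8 CPM. In macrophage-like cells 6 members were over 2-fold lower in the Yap knockout (Itgb4, Lama4, Lama5, Lamb1, Lamb2 and Lamc1). Fibroblast markers in these macrophage-like cells summed to 6942, 3273 and 873 CPM, and their part in those 6 values was not tested. Among them Lamc1, the gamma chain of most laminins, stood at 82.5 and 30.8 CPM, 2.68-fold lower (1.97 to 3.68), Lamb2 at 50.2 and 22.6, Lama5 at 37.4 and 17.9, Lama4 at 30.1 and 13.8 and Lamb1 at 29.6 and 12.8 CPM. Lama5 stood at 46.5 and 22.5 CPM in interstitial cell of Cajal-like cells, and Itga7 at 23.4 and 8.58 CPM in enteric glia-like cells. Lamb1, Lama2 and Itgb5 were 3.16-fold, 2.80-fold and 2.53-fold lower in enteric neuron-like cells, in which the fibroblast sum was 7059, 3110 and 962 CPM. The part of this RNA in those ratios was not tested.

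Read over all kept cells of a library, where the mix of cells and the RNA per cell cannot be told apart, 7 of 26 measured members were over 2-fold higher in YAP5SA and 1 lower, beside 5.3% and 3.47% of all genes. The 7 were Itgb6 (2.85 to 24.8 CPM, 8.69-fold), Lamb3 (7.75 to 35.4 CPM), Itga3 (25.0 to 69.2 CPM), Lama5 (73.0 to 167 CPM) and the leukocyte chains Itgam, Itgb2 and Itgal. Itgb6 and Lamb3 were measured here only because YAP5SA reached 10 CPM. The member past 2-fold lower was Itgb3, from 19.5 to 7.10 CPM. Epithelial-like cells were 475 in the control and 1616 in YAP5SA, macrophage-like cells 302 and 772, and neutrophil-like cells 19 and 250. In the Yap knockout, 4 of 25 measured members were over 2-fold higher (Itga2, Itga6, Itgal and Itgb7) and 0 lower, beside 6.78% and 3.59% of all genes. Itga6 stood at 35.7 and 76.7 CPM, 2.15-fold (2.02 to 2.29).

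The proteins around these receptors were read in epithelial-like cells from a list of 53 genes chosen by function, of which 44 were measured for YAP5SA. Of these, 9 were over 2-fold higher and 1 lower, beside 11.3% and 8.41% of all genes, with a median log2 ratio of 0.28. The largest ratio was that of Bcam, a further receptor for Lama5 on the cell surface, at 102, 633 and 35.4 CPM in the control, YAP5SA and Yap knockout. It was 6.20-fold higher in YAP5SA (5.56 to 6.93) and 2.89-fold lower in the Yap knockout (2.43 to 3.43), and so had the same order of libraries as Lama5 itself. Dag1, the dystroglycan receptor for laminin, was 1.55-fold higher in YAP5SA and Sdc1, a syndecan, 1.04-fold. Cd151, the tetraspanin that binds integrins with Itga3 or Itga6, stood at 28.7, 105 and 31.8 CPM, 3.65-fold in YAP5SA (2.97 to 4.54), while the hemidesmosome linkers Plec and Dst were at 1.05-fold and 0.878-fold. In the basement membrane list Fras1 was 3.48-fold (2.69 to 4.58) and Agrn, a proteoglycan that binds laminin, 2.29-fold (1.96 to 2.69) higher, and the 2 lowest were Frem1 and Nid2 at 0.490-fold and 0.736-fold the control. Tgfb1, whose latent form Itgb6 with Itgav activates, stood at 8.85, 24.3 and 9.24 CPM, 2.75-fold in YAP5SA (1.89 to 4.16), while the ligand Tnc was at 0.719-fold.

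In the focal adhesion list 4 of 18 measured genes were over 2-fold higher in YAP5SA, namely Lims2, Parva, Fermt2 and Actn1 at 3.06-fold, 2.27-fold, 2.27-fold and 2.18-fold, and 1 was lower. That gene was Fermt1, the kindlin of epithelia that activates beta chains, at 83.6, 24.1 and 105 CPM, 3.46-fold lower in YAP5SA (2.96 to 4.04). Its relative Fermt2, the kindlin of most other tissues, stood at 62.2, 141 and 55.9 CPM. The kindlins therefore differed from the control in opposite directions. In the Yap knockout 0 of 43 measured partner genes were past 2-fold higher and 4 lower (Nid2, Hspg2, Fn1 and Bcam), beside 3.05% and 4% of all genes, and the median log2 ratio was -0.28. All 12 measured basement membrane genes had a ratio under 1, with Nid2 2.94-fold lower (2.01 to 4.35), Hspg2 2.04-fold lower (1.81 to 2.30) and Col4a5 nearest to the control at 0.891-fold. The matrix ligand fibronectin, Fn1, stood at 187, 225 and 62.8 CPM. Fibroblasts make many of these proteins, and the fibroblast marker sum given above was lowest in the Yap knockout. The part of fibroblast RNA in these values was not tested.

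**Figure D5:**
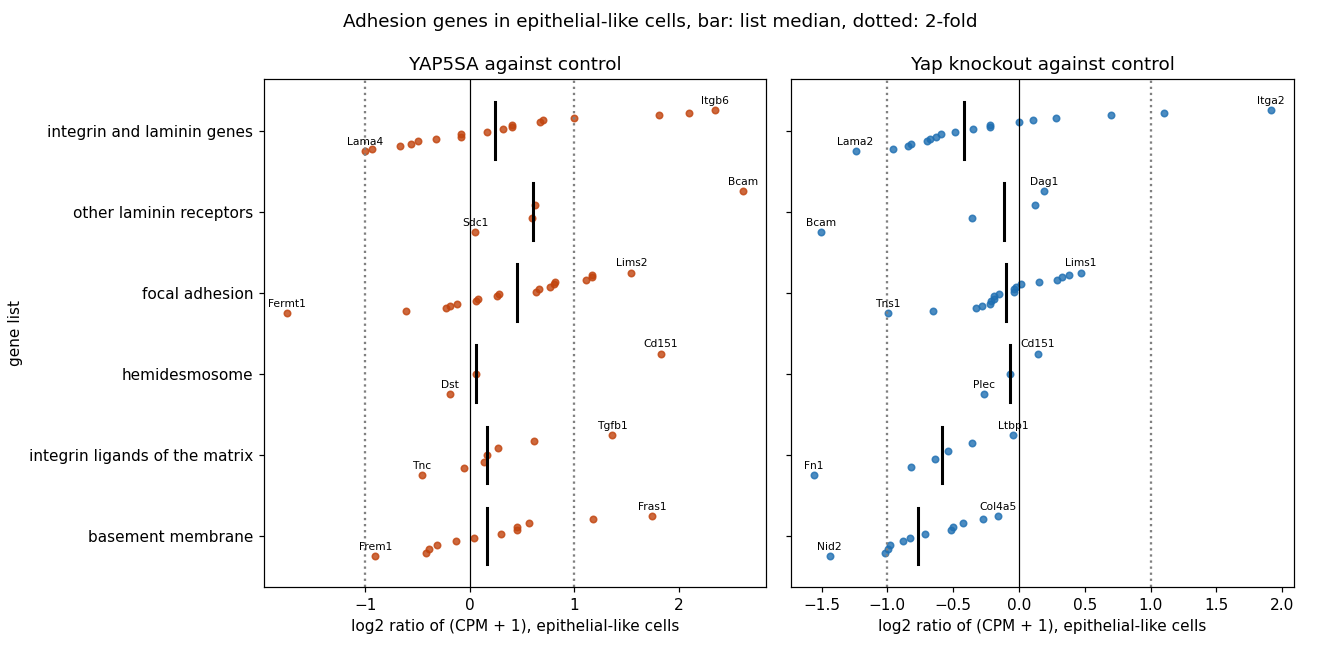
Log2 ratio of (CPM + 1) to the control in epithelial-like cells for the integrin and laminin genes and 5 lists of partner genes; each point is a gene with at least 10 CPM in either library, black bars are list medians, dotted lines mark 2-fold, and the highest and lowest gene of each list are named. Bcam is the highest point of YAP5SA at 2.62, and all basement membrane points of the Yap knockout lie left of 0.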

How the data were processed

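The authors deposited raw UMI counts for each gene in each cell, written with PISA 1.0 per the file headers. STAR and the build GRCm39 are listed in the submitters' processing notes. A correction for free RNA is not stated, and no deposited cell has fewer than 1000 UMIs. Organoid bulk RNA of the study was not analysed here.

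Cells with at least 500 genes and at most 20% mitochondrial UMIs were kept. Scrublet (scanpy 1.11.5) called 0 doublets by its own threshold, so the top 6% by doublet score were taken out instead. Leiden clusters (igraph 0.11.9) used 3000 variable genes, 40 components, 15 neighbours and resolution 1.0. A cell entered the class with the highest mean z score of log UMIs per 10000 over its fixed markers if that score exceeded 0.5, exceeded the next by 0.25 and at least 3 markers (2 in lists of 4) were detected. These limits were set after seeing the cells. UMIs were summed per class and library and scaled to CPM. A ratio has an exact conditional Poisson interval (scipy 1.17.1), and "over 2-fold" means with 1 CPM added, among genes of at least 10 CPM in either library. No test was possible with 1 library per genotype, and intervals cover counting error only. The interval code was tested on simulated data. Further software was Python 3.11.15, numpy 2.4.6, pandas 2.3.3, anndata 0.12.19 and matplotlib 3.10.9.

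Members are named with values in epithelial-like cells where they reach 10 CPM in any library, and in another class where they are among its 5 highest members or past 2-fold with at least 20 CPM. Partner genes are named up to the 2 highest and 2 lowest ratios of a list. Itgb3 in fibroblast-like cells, Lamb3 outside the epithelium, Itgb2 and Itgam in it, and the partners Fermt2, Actn1 and Plec fall outside this rule and were chosen after their values were seen. The symbol rule also takes 1 further gene that is not reported here. Members, lists and markers were chosen with earlier results of these data known. Alternatives were other cell filters, gates, clusters, scalings, pseudocounts, CPM minimums and folds, and subtraction of the non-epithelial profile.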

Additional observations from a re-analysis of the deposited data

How the results depend on the processing

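Each genotype has 1 library, so no library could be left out. No paired analysis was possible because each genotype has a single library and no result comes from a test. Single genes were recomputed for members in epithelial-like cells only, and there none of the 8 alternatives reversed the sign of a value past 2-fold. Of these 304 values, 276 moved by less than their counting interval and 28 by more. In YAP5SA epithelial-like cells the log2 ratios ranged over the 8 alternatives from 1.95 to 2.37 for Itga3, 2.04 to 2.61 for Itgb6 and 1.70 to 2.14 for Lama5. Itgb6 in the Yap knockout ranged from 0.90 to 1.31. Subtracting the non-epithelial profile gave the largest moves, with Itgb1 at 4.32, Lamb2 at 2.61 and Lamb1 at 2.43 in YAP5SA and Lamb2 at -3.02, Itga9 at -2.81, Itga5 at -2.58 and Itgb1 at -2.44 in the Yap knockout. The number of members with the same leading class in all libraries, 18, ranged from 17 to 20.

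Counts past 2-fold that moved by over 1.5 times follow, by comparison. For members in epithelial-like cells of YAP5SA (3 higher, 1 lower), 6 were higher and 3 lower at 1.5-fold, 8 and 3 with no minimum, and 7 and 0 with the profile subtracted. There the lower count was 2 with the mean of per-cell CPM and with median-of-ratios scaling, and 0 with doublets kept, a pseudocount of 5 CPM or the stricter gate. For the Yap knockout (2 higher, 1 lower), 1 was higher at a minimum of 20 CPM, with the profile subtracted, a pseudocount of 5 CPM or the stricter gate. Its lower count was 8 at 1.5-fold, 3 with the mean of per-cell CPM or no minimum, 2 with clusters, at most 10% mitochondrial UMIs or the stricter gate, and 0 at 20 CPM, with a pseudocount of 5 CPM or the profile subtracted.

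Over the 8 other classes of YAP5SA (29 higher, 4 lower), 13 pairs were higher at 20 CPM, 57 with no minimum and 15 with a pseudocount of 5 CPM. Lower were 16 at 1.5-fold, 9 with no minimum, 8 with doublets kept, 2 with a pseudocount of 5 CPM and 7 with the stricter gate. For the Yap knockout (13 higher, 15 lower), 30 were higher and 32 lower at 1.5-fold, and 32 were lower with no minimum, 26 with doublets kept and 9 with a pseudocount of 5 CPM. Over whole libraries of YAP5SA (7 higher, 1 lower), 4 were lower at 1.5-fold and 0 at 20 CPM. For the Yap knockout (4 higher, 0 lower), 8 were higher and 5 lower at 1.5-fold, 1 was higher at 20 CPM or with a pseudocount of 5 CPM, 2 higher and 1 lower with median-of-ratios scaling, and 1 lower with the mean of per-cell CPM.

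For partner genes of YAP5SA (9 higher, 1 lower), 17 were higher and 3 lower at 1.5-fold, 24 higher with the profile subtracted and 2 lower with median-of-ratios scaling. For the Yap knockout (4 lower), 13 were lower at 1.5-fold, 7 with median-of-ratios scaling or the stricter gate and 8 with the profile subtracted. Where a looser or stricter limit is the alternative, it sets the count by construction, and for the others the cause was not tested. Depth limits the smaller classes, in which the 3 UMIs that a count of 0 allows come to as much as 4.83 CPM (pericyte-like cells of the Yap knockout).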
